A study of Mus musculus with 12 samples.

Results

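Genes of MHC class I presentation were followed in CD8+ T cells of the mouse spleen that were Senp1 CKO (a conditional knockout, as the short form is commonly used) or Senp1 WT. They were chosen by symbol, as the H2-K, H2-D1, H2-Q, H2-T and H2-Bl genes and the numbered H2-M genes, together with B2m, Nlrc5, Tap1, Tap2, Tapbp, Psmb8, Psmb9, Psmb10, Erap1, Calr, Canx and Pdia3. Of 56691 gene IDs in the count table, 45 carried such a symbol, and 31 of these had at least 10 counts in at least 3 libraries and were kept. The kept genes were 19 H2 genes and the 12 others named above, and all 31 also passed the filter of the statistical test. Of the 14 H2 genes that were not kept, 9 had 0 counts in all 12 libraries, and the highest single count among the 14 was 12, in H2-M2. H2-Ke6 was caught by the H2-K symbol pattern but is known as a hydroxysteroid dehydrogenase gene that lies near H2-K1, so it was left out of the heavy chain sums below.

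RNA was sequenced in 4 groups of 3 libraries. Senp1 CKO and Senp1 WT naive cells had been stimulated for 48 h with antibodies to CD3 at 5 µg/ml and to CD28 at 1 µg/ml, and unstimulated CKO and WT cells stood at 0 h. The product of Senp1 is an enzyme that cuts SUMO, a small modifier protein, off other proteins. The labels give no strain, age, sex, Cre driver or H2 haplotype, and nothing in them ties replicates to different animals. The p-values therefore rest on library-to-library spread, which may be technical.

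MHC class I molecules show short peptides from inside a cell to CD8+ T cells. The heavy chains, coded by H2 genes, pair with beta-2-microglobulin (B2m). Peptides are cut by the immunoproteasome (Psmb8, Psmb9, Psmb10), carried into the endoplasmic reticulum by the TAP transporter (Tap1, Tap2), trimmed by Erap1 and loaded with the help of tapasin (Tapbp), calreticulin (Calr), calnexin (Canx) and the oxidoreductase Pdia3. Nlrc5 is a transactivator of class I genes. H2-K1 and H2-D1 code for classical heavy chains, whereas the Q, T and M genes are mostly non-classical, differ in number and sequence between mouse strains, and include near-identical copies.

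The letters upstream of class I genes are shown first, so that the motifs searched for can be seen in place. The 200 bases before the annotated start are given for the main heavy chains H2-K1, H2-D1 and H2-Q4, for B2m, and for H2-T23 and H2-T-ps, which share transcript stretches but whose counts moved differently. H2-K1 has more than 1 listed start, and the first is used. They are RefSeq sequences of GRCm38.p6, written 5′ to 3′ on the gene's strand. Capitals mark GGGNNTTCC (a core of NF-kB sites), TGACG (as in the X2 box), CCAAT (as in the Y box; ATTGG on the other strand) and GAAANNGAA (a core of interferon response elements), each searched on both strands.
H2-K1 (chr17:34000334-34000533, minus strand): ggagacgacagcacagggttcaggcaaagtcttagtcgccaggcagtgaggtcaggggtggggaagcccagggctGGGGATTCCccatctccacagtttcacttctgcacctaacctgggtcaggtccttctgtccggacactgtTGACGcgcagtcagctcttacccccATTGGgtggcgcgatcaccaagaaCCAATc
H2-D1 (chr17:35262894-35263093, plus strand): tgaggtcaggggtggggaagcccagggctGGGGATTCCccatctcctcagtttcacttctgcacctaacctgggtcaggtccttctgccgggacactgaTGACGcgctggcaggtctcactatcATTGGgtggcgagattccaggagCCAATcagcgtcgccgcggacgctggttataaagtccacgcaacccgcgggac
H2-Q4 (chr17:35379417-35379616, plus strand): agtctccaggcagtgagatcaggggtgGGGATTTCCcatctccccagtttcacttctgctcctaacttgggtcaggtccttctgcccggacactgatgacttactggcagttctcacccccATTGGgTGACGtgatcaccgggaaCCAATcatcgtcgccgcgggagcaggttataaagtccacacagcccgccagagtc
B2m (chr2:122147487-122147686, plus strand): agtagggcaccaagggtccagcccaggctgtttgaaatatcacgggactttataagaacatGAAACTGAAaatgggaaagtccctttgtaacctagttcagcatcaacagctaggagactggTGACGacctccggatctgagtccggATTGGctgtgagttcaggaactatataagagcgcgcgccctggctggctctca
H2-T23 (chr17:36032702-36032901, minus strand): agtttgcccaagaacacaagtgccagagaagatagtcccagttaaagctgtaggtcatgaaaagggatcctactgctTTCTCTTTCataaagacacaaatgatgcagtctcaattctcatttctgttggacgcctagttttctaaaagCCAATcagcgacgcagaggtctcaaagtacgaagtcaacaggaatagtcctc
H2-T-ps (chr17:36111677-36111876, minus strand): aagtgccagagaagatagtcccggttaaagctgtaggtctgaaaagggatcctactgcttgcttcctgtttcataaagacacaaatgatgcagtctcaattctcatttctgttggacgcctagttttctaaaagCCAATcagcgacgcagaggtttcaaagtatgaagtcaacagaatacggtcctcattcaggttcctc

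Windows of 300 bases, from 250 before to 50 after the start, were in the RefSeq table for 23 of the 31 genes, 13 of them H2 genes. GGGNNTTCC was in the windows of H2-K1, H2-D1, H2-Q4, H2-Q6 and H2-Q7, against 5.82% of all 32851 windows. CCAAT was in 18 of the 23, against 37.4% of all windows, and TGACG in 11 of the 23, against 20.8%. Both were in H2-K1, H2-D1, H2-M3, H2-Q4, H2-Q7, H2-T22 and B2m, whose counts were lower at 48 h, and also in Canx, Pdia3, Psmb9 and Tap1, whose counts were higher. GAAANNGAA was in 4 of the 23, H2-T22, H2-T23, B2m and Erap1, against 8.56%. A TGACG was followed by a CCAAT on the opposite strand at the same spacing in H2-K1, H2-D1, H2-M3 and B2m. These matches describe letters, not bound sites.

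Library totals ran from 15900529 to 22427151 counts. CPM below stands for counts relative to the library's TMM-adjusted total, with all libraries brought to the same size. Senp1 checked the labels: it averaged 70.3 ± 4.13 CPM in CKO and 162 ± 10.5 CPM in WT cells at 48 h, and 57.0 ± 2.64 CPM in CKO and 82.4 ± 3.99 CPM in WT cells at 0 h (SD, n = 3 each). All 7 CD8 T cell markers (Cd3d, Cd3e, Cd3g, Cd8a, Cd8b1, Trac, Lck) had counts in every group. WT replicate 1 at 48 h stood apart from the other WT libraries at 48 h, with a chi-square per degree of freedom of 20.8 and 16.5 against them, where these differed from each other by 4.74. Results that rest on it are given with and without it.

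At 48 h more heavy chain genes were lower than higher, and more of the loading machinery higher than lower, in both genotypes. There was no unstimulated group at 48 h, so the antibodies and the time in culture cannot be told apart. CPM gives a share of the library, not an amount of RNA per cell. At 48 h against 0 h, 25 of the 31 genes were called in CKO cells, 11 higher and 14 lower, which is 80.6%, beside 77.7% of all 15935 tested genes. In WT cells 29 were called, 15 higher and 14 lower, which is 93.5%, beside 77.9% of all tested genes. A gene was called at an edgeR adjusted p under 0.05. The members' share called was thus close to that of the whole transcriptome in CKO cells, and the direction by role is what is described here: 11 of 19 H2 genes were lower in CKO and 11 of 19 in WT cells, while 8 of the 12 other genes were higher in CKO and 9 of 12 in WT cells. Over all tested genes, 38.5% were higher and 39.2% lower in CKO cells, and 38.7% were higher and 39.1% lower in WT cells. The libraries of the 2 times did not overlap for 26 members in CKO cells (83.9%, beside 81.0% of all tested genes) and 29 in WT cells (93.5%, beside 79.4%). The median log2 change over all 31 was -0.44 in CKO and -0.34 in WT cells, beside -0.04 in CKO and -0.03 in WT cells over all tested genes.

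H2-K1 fell the most among the main heavy chains. In CKO cells it had 1445, 1552 and 1459 CPM at 48 h, against 3803, 3821 and 3601 CPM at 0 h. In WT cells it had 1354, 1190 and 1252 CPM at 48 h, against 3053, 2935 and 3010 CPM at 0 h. Every stimulated library lay below every unstimulated one, and the log2 change was -1.33 ± 0.06 in CKO and -1.25 ± 0.06 in WT cells (SE; edgeR adjusted p = 4.9e-14 and 1.34e-13). H2-D1, the other classical heavy chain, had 1192, 1222 and 1177 CPM in CKO cells at 48 h, against 2358, 2325 and 2249 CPM at 0 h. In WT cells H2-D1 had 1213, 986 and 1012 CPM at 48 h, against 2073, 1935 and 2006 CPM at 0 h. Its libraries did not overlap between the times either, with log2 changes of -0.95 ± 0.07 in CKO and -0.91 ± 0.07 in WT cells (edgeR adjusted p = 1.01e-10 and 2.05e-10).

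B2m, the light chain shared by all these heavy chains, fell less. It had 1577, 1649 and 1567 CPM in CKO cells at 48 h, against 2309, 2514 and 2471 CPM at 0 h, and the times did not overlap. In WT cells B2m had 1840, 1452 and 1498 CPM at 48 h, against 2219, 2036 and 2112 CPM at 0 h, the highest stimulated value being that of replicate 1. The log2 change of B2m was -0.61 ± 0.07 in CKO and -0.41 ± 0.07 in WT cells (edgeR adjusted p = 3.29e-07 and 4.4e-05). Per kilobase of exon, B2m stood at 1860 CPM in CKO and 1860 CPM in WT cells at 48 h, and at 2830 CPM in CKO and 2470 CPM in WT cells at 0 h. H2-K1 stood lower on that scale, at 506 CPM per kilobase in CKO and 431 in WT cells at 48 h, and at 1270 in CKO and 1020 in WT cells at 0 h.

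Nlrc5 moved with the heavy chains. It had 323, 340 and 328 CPM in CKO cells at 48 h, against 536, 531 and 562 CPM at 0 h. In WT cells Nlrc5 had 330, 388 and 342 CPM at 48 h, against 480, 519 and 444 CPM at 0 h. The stimulated libraries were the lower ones without overlap, and the log2 change was -0.72 ± 0.07 in CKO and -0.45 ± 0.07 in WT cells (edgeR adjusted p = 9.42e-09 and 6.62e-06). The difference between these responses was -0.27 ± 0.10 and did not pass (edgeR adjusted p = 0.203), but was called without WT replicate 1 at 48 h (log2 -0.33, edgeR adjusted p = 0.0384). An antisense gene on the opposite strand overlaps Nlrc5, and the strand setting of the counting is not given in the sources used here.

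**Figure D1:**
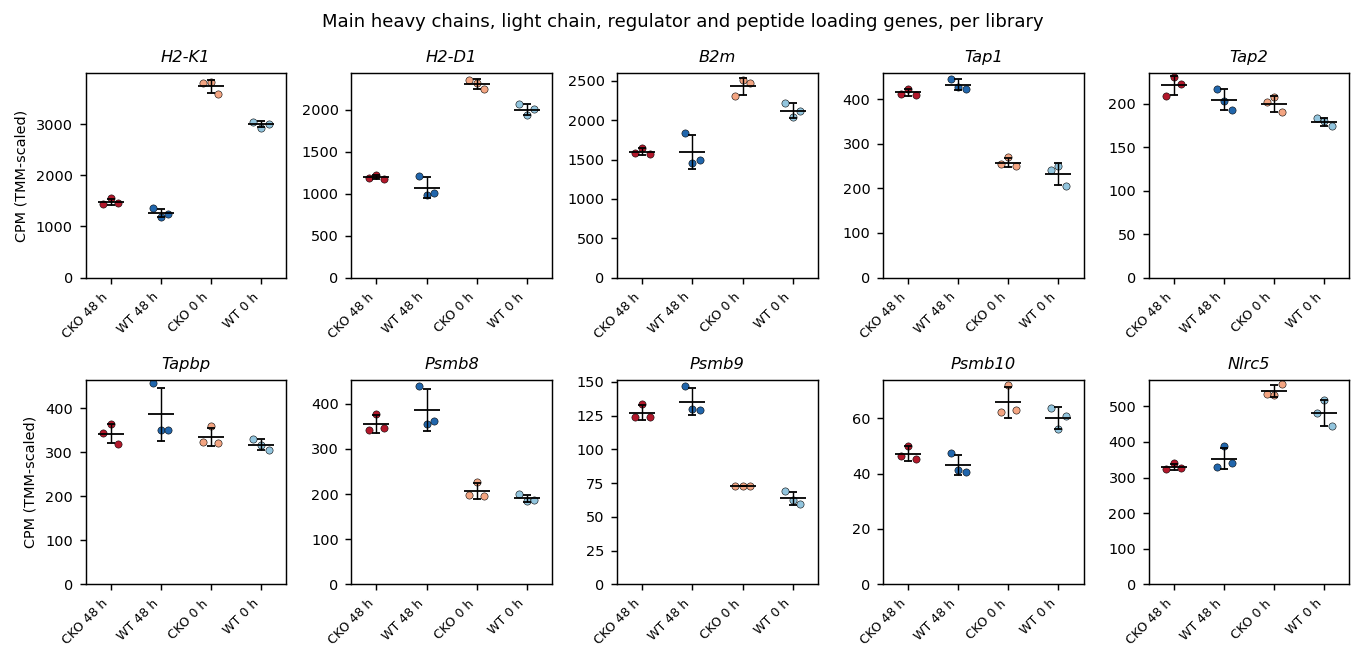
CPM on TMM-scaled totals (y axis, from 0) of 10 class I and peptide loading genes in each library of the 4 groups. Points are libraries, bars the mean and SD (n = 3). H2-K1, H2-D1, B2m, Nlrc5 and Psmb10 lie lower at 48 h than at 0 h, and Psmb8, Psmb9 and Tap1 higher, in CKO and WT cells alike.

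The immunoproteasome genes divided. Psmb8 had 343, 378 and 346 CPM in CKO cells at 48 h, against 199, 227 and 196 CPM at 0 h. In WT cells Psmb8 had 440, 356 and 363 CPM at 48 h, against 200, 185 and 187 CPM at 0 h. It rose without overlap, by a log2 change of 0.78 ± 0.08 in CKO and 1.02 ± 0.08 in WT cells (edgeR adjusted p = 3.03e-08 and 5.57e-10). Psmb9 had 124, 134 and 124 CPM in CKO cells at 48 h, against 72.6, 73.2 and 72.9 CPM at 0 h. In WT cells Psmb9 had 147, 130 and 129 CPM at 48 h, against 69.2, 62.5 and 59.3 CPM at 0 h. Its libraries at 48 h were all above those at 0 h, with log2 changes of 0.80 ± 0.07 in CKO and 1.08 ± 0.07 in WT cells (edgeR adjusted p = 2.86e-09 and 2.66e-11). Psmb10, the remaining catalytic subunit of the immunoproteasome, went the other way. It had 46.4, 50.1 and 45.1 CPM in CKO cells at 48 h, against 62.2, 72.1 and 62.9 CPM at 0 h. In WT cells Psmb10 had 47.3, 41.3 and 40.5 CPM at 48 h, against 63.7, 56.0 and 60.6 CPM at 0 h. The stimulated libraries were again separate, on the low side, and the log2 change was -0.48 ± 0.08 in both genotypes (edgeR adjusted p = 2.98e-05 in CKO and 2.67e-05 in WT cells).

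Of the TAP transporter, the Tap1 subunit rose more than Tap2. Tap1 had 412, 423 and 410 CPM in CKO cells at 48 h, against 254, 270 and 249 CPM at 0 h. In WT cells Tap1 had 446, 428 and 423 CPM at 48 h, against 241, 251 and 205 CPM at 0 h. No library at 48 h reached down to one at 0 h, and the log2 change was 0.69 ± 0.07 in CKO and 0.90 ± 0.07 in WT cells (edgeR adjusted p = 1.54e-08 and 2.63e-10). Tap1 and Psmb9 overlap on opposite strands, so with the strand setting unknown their reads cannot be wholly told apart. Tap2 had 209, 231 and 223 CPM in CKO cells at 48 h, against 202, 208 and 190 CPM at 0 h. In WT cells Tap2 had 217, 203 and 193 CPM at 48 h, against 183, 180 and 174 CPM at 0 h. The stimulated libraries were just above the unstimulated ones, and the log2 change was 0.15 ± 0.06 in CKO (edgeR adjusted p = 0.0379) and 0.19 ± 0.06 in WT cells (edgeR adjusted p = 0.00811). The CKO call for Tap2 was lost without CKO replicate 2 at 48 h (0.12, adjusted p = 0.118), CKO replicate 3 at 48 h (0.14, adjusted p = 0.0802), CKO replicate 1 at 0 h (0.16, adjusted p = 0.0556) or CKO replicate 3 at 0 h (0.12, adjusted p = 0.136; log2 changes with edgeR adjusted p). It was also lost with the stricter filter, with other size factors or none, in a fit of the 2 groups alone and by DESeq2 (adjusted p from 0.0711 to 0.229), and the WT call with the stricter filter (0.13, edgeR adjusted p = 0.0564).

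Tapbp, which holds the empty heavy chain to TAP, had 344, 364 and 320 CPM in CKO cells at 48 h, against 324, 359 and 321 CPM at 0 h. These overlapped, and the log2 change of 0.03 ± 0.09 did not pass (edgeR adjusted p = 0.731). In WT cells Tapbp had 457, 351 and 352 CPM at 48 h, against 331, 316 and 306 CPM at 0 h, with replicate 1 high at both times. It was higher at 48 h in WT cells by a log2 change of 0.28 ± 0.09 (edgeR adjusted p = 0.00751), and the difference between the genotypes' responses did not pass (-0.25 ± 0.12, edgeR adjusted p = 0.428).

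The general chaperones of the endoplasmic reticulum in the set, which also fold many other proteins, rose as well, and Canx and Pdia3 had the largest rises among the 12 genes outside H2. Canx averaged 1005 ± 43.1 CPM in CKO cells at 48 h, against 298.7 ± 8.67 CPM at 0 h, and 945 ± 12.6 CPM in WT cells at 48 h, against 289.8 ± 11.5 CPM at 0 h (SD, n = 3 each). Its log2 change was 1.75 ± 0.06 in CKO and 1.71 ± 0.06 in WT cells (edgeR adjusted p = 4.9e-16 and 6.56e-16). Pdia3 rose by a log2 change of 1.30 ± 0.07 in CKO and 1.29 ± 0.07 in WT cells, and Calr by 0.61 ± 0.06 in CKO and 0.56 ± 0.06 in WT cells. Erap1, the trimming peptidase, rose by 0.24 ± 0.07 in CKO and 0.34 ± 0.07 in WT cells. Erap1 overlaps the gene Cast on the opposite strand, which had 55063 counts over all libraries beside 57130 for Erap1.

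**Figure D2:**
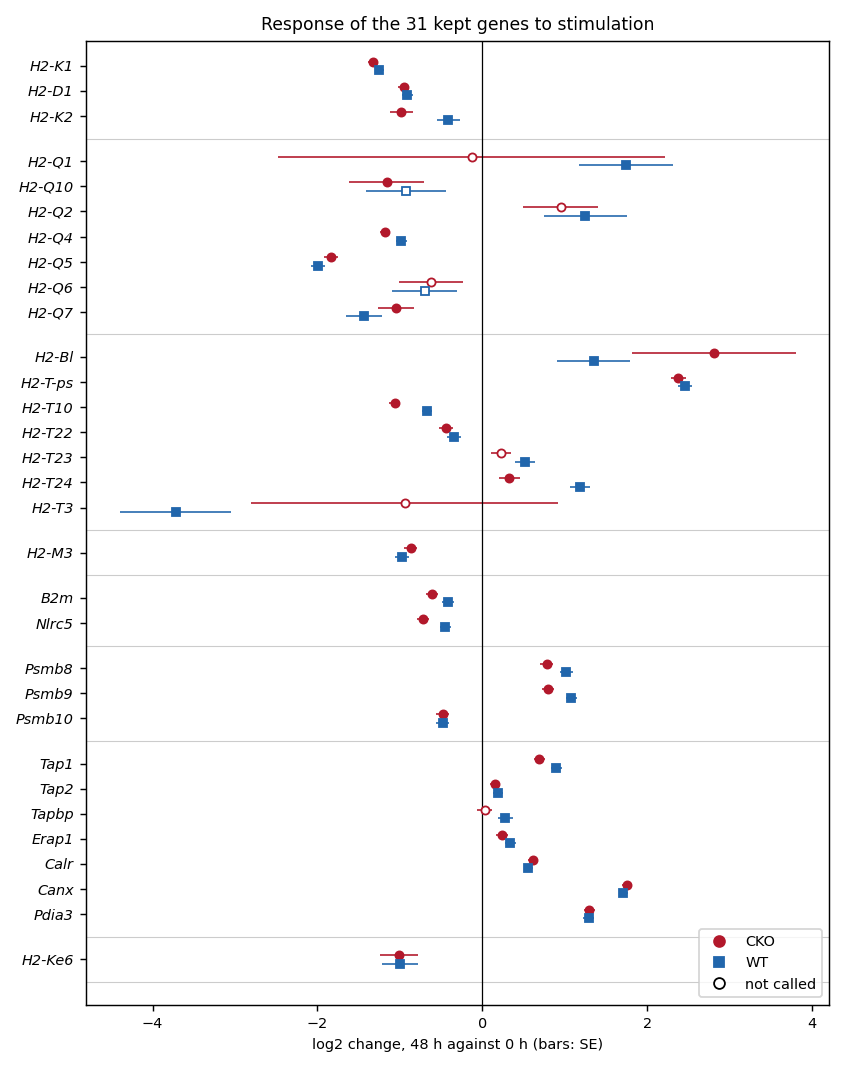
Log2 change at 48 h against 0 h (x axis, with SE) of the 31 kept genes in CKO (circles) and WT cells (squares), grouped by role. Filled symbols were called at an edgeR adjusted p under 0.05. H2-K1, H2-D1, most Q genes, H2-M3, B2m and Nlrc5 lie left of 0, and Canx, Pdia3, Psmb8, Psmb9, Tap1 and H2-T-ps right of it.

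Among the non-classical H2 genes, H2-Q4, H2-Q5 and H2-Q7 were called lower at 48 h in both genotypes, as H2-K1 was. The remaining Q genes were not called lower in both, and H2-Q2 and H2-Q1 had higher counts at 48 h in WT cells, as given below. H2-Q1 reached 10 counts mostly in WT libraries at 48 h, so its rise there was partly built in. H2-Q4 had 384, 421 and 388 CPM in CKO cells at 48 h, against 974, 864 and 872 CPM at 0 h. In WT cells H2-Q4 had 376, 339 and 345 CPM at 48 h, against 681, 711 and 694 CPM at 0 h. The times were far apart, with log2 changes of -1.18 ± 0.06 in CKO and -0.98 ± 0.06 in WT cells (edgeR adjusted p = 1.19e-12 and 2.29e-11). H2-Q5, annotated as a polymorphic pseudogene, fell further, with 40.1, 49.0 and 45.2 CPM in CKO cells at 48 h, against 169, 155 and 156 CPM at 0 h. In WT cells H2-Q5 had 25.4, 28.8 and 26.4 CPM at 48 h, against 94.0, 115 and 110 CPM at 0 h. Its log2 change was -1.84 ± 0.08 in CKO and -1.99 ± 0.09 in WT cells (edgeR adjusted p = 1.35e-13 and 6.38e-14), and 36.4% of its stretches of 50 bases also occur in other transcripts, most of them in H2-Q7.

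H2-Q7, which codes for the Qa-2 antigen, averaged 70.7 ± 13.1 CPM in CKO cells at 48 h, against 146.6 ± 19.9 CPM at 0 h, and 58.4 ± 16.6 CPM in WT cells at 48 h, against 158 ± 21.2 CPM at 0 h. It fell by a log2 change of -1.05 ± 0.22 in CKO and -1.43 ± 0.22 in WT cells (edgeR adjusted p = 0.00182 and 0.000253). Its neighbour H2-Q6 spread widely within groups (21.7 to 50.7 CPM in WT cells at 48 h) and was not called in either genotype (log2 -0.62 in CKO and -0.70 in WT cells). Without WT replicate 1 at 48 h, which held the 50.7 CPM, H2-Q6 was called lower in WT cells (log2 -1.17, edgeR adjusted p = 0.018). H2-Q10 had 7.07 CPM in that library and 1.32 and 2.0 CPM in the other WT libraries at 48 h, against 6.93, 6.83 and 5.89 CPM in WT cells at 0 h. With that library H2-Q10 was not called in WT cells (-0.93 ± 0.49, edgeR adjusted p = 0.104), and without it the log2 change was -1.95 (edgeR adjusted p = 3.24e-07). Same-numbered WT libraries of the 2 times deviated together, and with a replicate block within each genotype H2-Q10 was also called in WT cells (log2 -1.13, edgeR adjusted p = 0.0402).

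In CKO cells H2-Q10 fell to 7.28, 4.61 and 5.87 CPM at 48 h, against 14.9, 13.4 and 11.5 CPM at 0 h, without overlap. This log2 change of -1.16 ± 0.45 was called (edgeR adjusted p = 0.0378), but lost its call without any single library of CKO at 48 h (adjusted p = 0.0518, 0.114 and 0.0892 without replicates 1, 2 and 3), of CKO at 0 h (adjusted p = 0.0936, 0.0783 and 0.0555) or of WT at 0 h (adjusted p = 0.0547, 0.0563 and 0.0564), with log2 changes from -1.33 to -1.01. It was also lost with no count filter (-1.13, adjusted p = 0.0987; all edgeR adjusted). H2-Q2 was low, at 0.297 to 1.85 CPM over all libraries. It was called higher at 48 h in WT cells (1.25 ± 0.50, edgeR adjusted p = 0.0253), where the call was lost without WT replicate 1 (1.16, adjusted p = 0.0677) or 3 (1.21, adjusted p = 0.06) at 48 h, or WT replicate 2 (1.12, adjusted p = 0.0806) or 3 (1.13, adjusted p = 0.0744) at 0 h. In CKO cells H2-Q2 had a log2 change of 0.95 ± 0.45, which did not pass (edgeR adjusted p = 0.0589) except without CKO replicate 3 at 48 h (1.21, adjusted p = 0.0311) or CKO replicate 3 at 0 h (1.32, adjusted p = 0.0304).

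H2-M3, which presents formylated peptides, fell by a log2 change of -0.87 ± 0.08 in CKO and -0.97 ± 0.09 in WT cells, and H2-K2, annotated as a pseudogene, by -0.98 ± 0.14 in CKO and -0.41 ± 0.14 in WT cells. H2-Ke6, the dehydrogenase gene, fell by -1.01 ± 0.23 in CKO and -1.0 ± 0.22 in WT cells. All of these were called by edgeR (adjusted p from 3.28e-09 to 0.0101). They were low to moderate genes, at 29.7 ± 0.87 CPM for H2-M3, 11.0 ± 1.72 CPM for H2-K2 and 2.37 ± 0.54 CPM for H2-Ke6 in CKO cells at 48 h (SD, n = 3).

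The T genes did not move as one. H2-T-ps, annotated as a pseudogene, rose the most of the H2-T genes. It had 76.2, 83.0 and 71.2 CPM in CKO cells at 48 h, against 13.7, 15.4 and 15 CPM at 0 h. In WT cells H2-T-ps had 177, 138 and 144 CPM at 48 h, against 28.2, 27.2 and 28.1 CPM at 0 h. The log2 change was 2.38 ± 0.10 in CKO and 2.46 ± 0.09 in WT cells (edgeR adjusted p = 1.67e-14 and 3.86e-15). H2-T23, which codes for Qa-1, had 382, 344 and 349 CPM in CKO cells at 48 h, against 296, 309 and 310 CPM at 0 h. In WT cells H2-T23 had 380, 253 and 266 CPM at 48 h, against 220, 203 and 202 CPM at 0 h. Its libraries did not overlap between times, yet the log2 change of 0.23 ± 0.12 in CKO cells did not pass (edgeR adjusted p = 0.1), while 0.52 ± 0.12 in WT cells did (edgeR adjusted p = 0.00176). The CKO change passed without WT replicate 1 (0.24, edgeR adjusted p = 0.000418) or WT replicate 2 at 48 h (0.24, edgeR adjusted p = 0.0357), with no count filter, in a fit of the 2 groups alone and with a replicate block (adjusted p from 0.000356 to 0.0407), and the difference between the responses did not pass (-0.29 ± 0.17, edgeR adjusted p = 0.533). Of the printed upstream sequences, that of H2-T23 holds GAAANNGAA on the other strand and that of H2-T-ps does not, while 18.0% of the 50-base stretches of H2-T-ps also occur in H2-T23. H2-T22 fell by -0.44 ± 0.08 in CKO and -0.34 ± 0.09 in WT cells (edgeR adjusted p = 0.000112 and 0.00138). Summed, H2-T23 and H2-T-ps averaged 435.2 ± 20.4 CPM in CKO and 453 ± 90.8 CPM in WT cells at 48 h, and 319.9 ± 8.56 CPM in CKO and 236.2 ± 10.5 CPM in WT cells at 0 h.

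Summed over the 18 kept H2 heavy chain genes, a value that does not depend on which of these copies a read was given to, class I counts were 4039 ± 95.6 CPM in CKO and 3716 ± 355 CPM in WT cells at 48 h, and 8185 ± 232 CPM in CKO and 6813 ± 78.8 CPM in WT cells at 0 h (SD, n = 3 each). The 18 include H2-K2 and H2-T-ps, annotated as pseudogenes, and H2-Q5, H2-T10 and H2-Bl, annotated as polymorphic pseudogenes. The ratio of the summed means at 48 h against 0 h was -1.02 in CKO and -0.87 in WT cells on the log2 scale. H2-K1 and H2-D1 together gave 66.4 ± 0.54% of these counts in CKO and 62.9 ± 0.5% in WT cells at 48 h, and 74.0 ± 0.8% in CKO and 73.4 ± 1.1% in WT cells at 0 h. The H2-T and H2-Bl genes gave 18.7 ± 0.63% in CKO and 23.3 ± 0.99% in WT cells at 48 h, and 9.38 ± 0.28% in CKO and 10.7 ± 0.099% in WT cells at 0 h. The T genes thus took a larger part of a smaller total at 48 h. The pseudogene H2-T-ps is within that part. It averaged 76.8 CPM in CKO and 153 CPM in WT cells at 48 h, and 14.7 CPM in CKO and 27.8 CPM in WT cells at 0 h.

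Markers of other cells moved with these changes. The summed B cell markers (10 of 10 detected) ran from 47.0 to 67.9 CPM in CKO and 40.1 to 73.4 CPM in WT cells at 48 h, and from 233 to 298 CPM in CKO and 346 to 670 CPM in WT cells at 0 h. Summed myeloid and dendritic markers (10 listed) ran from 5.21 to 11.3 CPM in CKO and 5.95 to 8.21 CPM in WT cells at 48 h, with Siglech at 0 counts in both groups and Clec9a also at 0 in CKO cells, and from 54.1 to 93.7 CPM in CKO and 58.2 to 88.1 CPM in WT cells at 0 h. All 7 CD8 T cell markers were called lower at 48 h in both genotypes as well, the list summing to between 1680 and 1750 CPM in CKO and 1950 and 1990 CPM in WT cells at 48 h, and to between 3740 and 4000 CPM in CKO and 3880 and 4070 CPM in WT cells at 0 h. Markers of CD4 and regulatory T cells (7 of 7 detected), among them activation genes such as Il2ra and Ctla4, went the other way as a sum. They summed to between 1860 and 2240 CPM in CKO and 2070 and 2680 CPM in WT cells at 48 h, and to between 408 and 490 CPM in CKO and 383 and 443 CPM in WT cells at 0 h. Of the 7, 3 were called higher in each genotype, while 2 were called lower in CKO and 1 in WT cells. In such bulk RNA, fewer cells of a type and less RNA per cell cannot be told apart, and the part of these markers in the class I changes was not tested.

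Between CKO and WT cells the called differences lay in H2 genes. At 48 h, 9 of the 31 genes were called, 4 higher and 5 lower in CKO cells, which is 29.0%, beside 4.54% of all tested genes (2.35% higher and 2.19% lower). At 0 h, 11 were called, 6 higher and 5 lower in CKO cells, which is 35.5%, beside 7.48% of all tested genes (4.1% higher and 3.38% lower). The lower genes include H2-Q1 and H2-Bl at both times and H2-T3 at 0 h. These were kept through WT libraries, so a lower level in CKO cells, and a part of the members' shares, was built in. The libraries of CKO and WT cells did not overlap for 12 members at 48 h (38.7%, beside 23.7% of all tested genes) and for 19 at 0 h (61.3%, beside 24.6%). All of these calls were H2 genes. Of the 12 other genes edgeR called 0 at either time. At an unadjusted p under 0.05 there were 1 at 48 h (Calr, higher in CKO) and 7 at 0 h (B2m, Calr, Erap1, Nlrc5, Psmb9, Tap1 and Tap2, all higher in CKO), and DESeq2 called Calr at 48 h and 0 at 0 h. Of the 10 B cell markers 0 were called between genotypes at either time. Their sums overlapped at 48 h but not at 0 h (233 to 298 CPM in CKO and 346 to 670 CPM in WT cells). Summed erythroid and platelet markers at 0 h ran from 11.0 to 18.9 CPM in CKO and 20.7 to 36.9 CPM in WT cells, with 0 called. Myeloid and dendritic sums overlapped at both times, with 1 marker called lower in CKO cells at each time. Of the 7 CD8 T cell markers 2 were lower in CKO cells at 48 h and 1 at 0 h. Summed natural killer and innate-like markers ran from 140 to 194 CPM in CKO and 229 to 266 CPM in WT cells at 48 h. At 0 h these ranges overlapped, from 149 to 258 CPM in CKO and 151 to 195 CPM in WT cells. Of these 9 markers 1 was called lower in CKO cells at 48 h and 0 were called at 0 h. The part of these markers in the class I differences was not tested.

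The count of genes higher in CKO cells rests on 1 library. Without WT replicate 1 at 48 h, 9 genes were higher at 48 h and 13 at 0 h. The added genes were Calr, H2-D1, H2-Q4, H2-Q10 and H2-T23 at 48 h, and B2m, Calr, H2-D1, H2-Q10, Nlrc5, Psmb9 and Tap2 at 0 h, so genes outside H2 were then called too. H2-D1 was among them at both times (log2 0.25, edgeR adjusted p = 0.00303 at 48 h, and 0.21, edgeR adjusted p = 0.00288 at 0 h). With all libraries H2-D1 did not pass (0.16 ± 0.07 at 48 h and 0.20 ± 0.07 at 0 h, edgeR adjusted p = 0.21 and 0.0693). At 0 h it did pass with library totals only (adjusted p = 0.0409), no count filter (adjusted p = 0.016), a replicate block (adjusted p = 0.0499), a fit of the 2 groups alone (adjusted p = 0.0231), DESeq2 (adjusted p = 0.0464) and without WT replicate 2 at 48 h (adjusted p = 0.0333). B2m did not differ beyond the spread at 48 h, at 0.00 ± 0.07 (edgeR adjusted p = 1), and was 0.20 ± 0.07 higher in CKO cells at 0 h, which did not pass (edgeR adjusted p = 0.119) but did without WT replicate 1 at 48 h (0.20, edgeR adjusted p = 0.00634), with no count filter (0.20, adjusted p = 0.0231) and in a fit of the 2 groups alone (0.21, adjusted p = 0.0368).

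H2-K1, whose values are given above, was higher in CKO cells at both times, with no overlap between CKO and WT libraries. The log2 difference was 0.23 ± 0.06 at 48 h and 0.32 ± 0.06 at 0 h (edgeR adjusted p = 0.0223 and 0.00133). The call at 48 h was lost without CKO replicate 1 (0.25, adjusted p = 0.0505), 2 (0.20, adjusted p = 0.0947) or 3 (0.24, adjusted p = 0.0734) at 48 h, without WT replicate 2 (0.19, adjusted p = 0.0882) or 3 (0.23, adjusted p = 0.0758) at 48 h, and in a fit of the 2 groups alone (0.24, adjusted p = 0.0512; all edgeR adjusted). H2-Q4 was higher in CKO cells at 0 h, by 0.38 ± 0.06 (edgeR adjusted p = 0.00062), and at 48 h by 0.17 ± 0.06, which did not pass (edgeR adjusted p = 0.146) except without WT replicate 1 at 48 h (0.21, adjusted p = 0.0448). H2-Q5 was higher at both times, by 0.74 ± 0.09 at 48 h and 0.59 ± 0.08 at 0 h (edgeR adjusted p = 2.38e-05 and 0.000106).

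H2-M3 had 30.1, 28.6 and 30.2 CPM in CKO cells, against 23.7, 19.4 and 21.8 CPM in WT cells, at 48 h. At 0 h H2-M3 had 53.0, 55.9 and 53.1 CPM in CKO cells, against 38.9, 42.4 and 45.7 CPM in WT cells. CKO cells were higher without overlap, by 0.45 ± 0.09 at 48 h and 0.35 ± 0.08 at 0 h (edgeR adjusted p = 0.0034 and 0.0119), the call at 0 h being lost without WT replicate 1 at 0 h (0.29, adjusted p = 0.0629). H2-T23, whose values are given above, was higher in CKO cells by 0.55 ± 0.12 at 0 h (edgeR adjusted p = 0.0174) and by 0.26 ± 0.12 at 48 h, where it did not pass (edgeR adjusted p = 0.316). The 0 h call of H2-T23 was lost without CKO replicate 2 (0.54, adjusted p = 0.0542) or 3 (0.54, adjusted p = 0.0702) or WT replicate 2 (0.53, adjusted p = 0.0718) or 3 (0.53, adjusted p = 0.0718) at 0 h, and at 48 h it was gained without WT replicate 1 at 48 h (0.46, adjusted p = 3.48e-05).

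H2-T10 and H2-T22 went in opposite directions. Where made, their products are close relatives that bind receptors of gamma delta T cells. H2-T10 is annotated as a polymorphic pseudogene and the labels give no strain, so whether its product is made here is not known. H2-T10 had 49.5, 57.5 and 48.9 CPM in CKO cells, against 156, 157 and 157 CPM in WT cells, at 48 h. At 0 h H2-T10 had 114, 105 and 105 CPM in CKO cells, against 247, 248 and 250 CPM in WT cells. CKO cells lay far below WT cells, by a log2 difference of -1.59 ± 0.07 at 48 h and -1.20 ± 0.06 at 0 h (edgeR adjusted p = 3.3e-12 and 1.92e-10). H2-T22 had 227, 232 and 215 CPM in CKO cells, against 187, 141 and 141 CPM in WT cells, at 48 h. At 0 h H2-T22 had 311, 304 and 301 CPM in CKO cells, against 192, 198 and 204 CPM in WT cells. Here CKO cells were higher at both times, by 0.52 ± 0.09 at 48 h and 0.63 ± 0.09 at 0 h (edgeR adjusted p = 0.000911 and 0.000119). The transcripts share 31.7% of the 50-base stretches of H2-T10 and 7.06% of its 100-base stretches, so reads could have been counted at either. Summed, the pair averaged 276.6 ± 13.0 CPM in CKO and 312.6 ± 26.2 CPM in WT cells at 48 h, and 414 ± 10.1 CPM in CKO and 446.4 ± 7.69 CPM in WT cells at 0 h. The sum differed by -0.18 at 48 h and -0.11 at 0 h on the log2 scale, far less than either gene.

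H2-T-ps was lower in CKO cells at 48 h (log2 -1.0 ± 0.08, edgeR adjusted p = 2.19e-07) and by nearly as much at 0 h (-0.92 ± 0.10, edgeR adjusted p = 5.03e-06). H2-T24 had 41.8, 42.5 and 40.0 CPM in CKO cells, against 102, 105 and 93.5 CPM in WT cells, at 48 h. At 0 h H2-T24 had 30.3, 32.8 and 35.9 CPM in CKO cells, against 53.8, 44.7 and 33.6 CPM in WT cells. The stimulated libraries were widely separate (-1.27 ± 0.12, edgeR adjusted p = 1.14e-05), whereas the unstimulated ones overlapped (-0.42 ± 0.13, edgeR adjusted p = 0.0632). Without WT replicate 3 at 0 h, the overlapping library, the 0 h difference was called (-0.58, edgeR adjusted p = 0.000924), and it was also called with no count filter and by DESeq2 (adjusted p = 9.05e-05 and 0.0219). No 100-base stretch of H2-T24 occurs in another transcript.

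**Figure D3:**
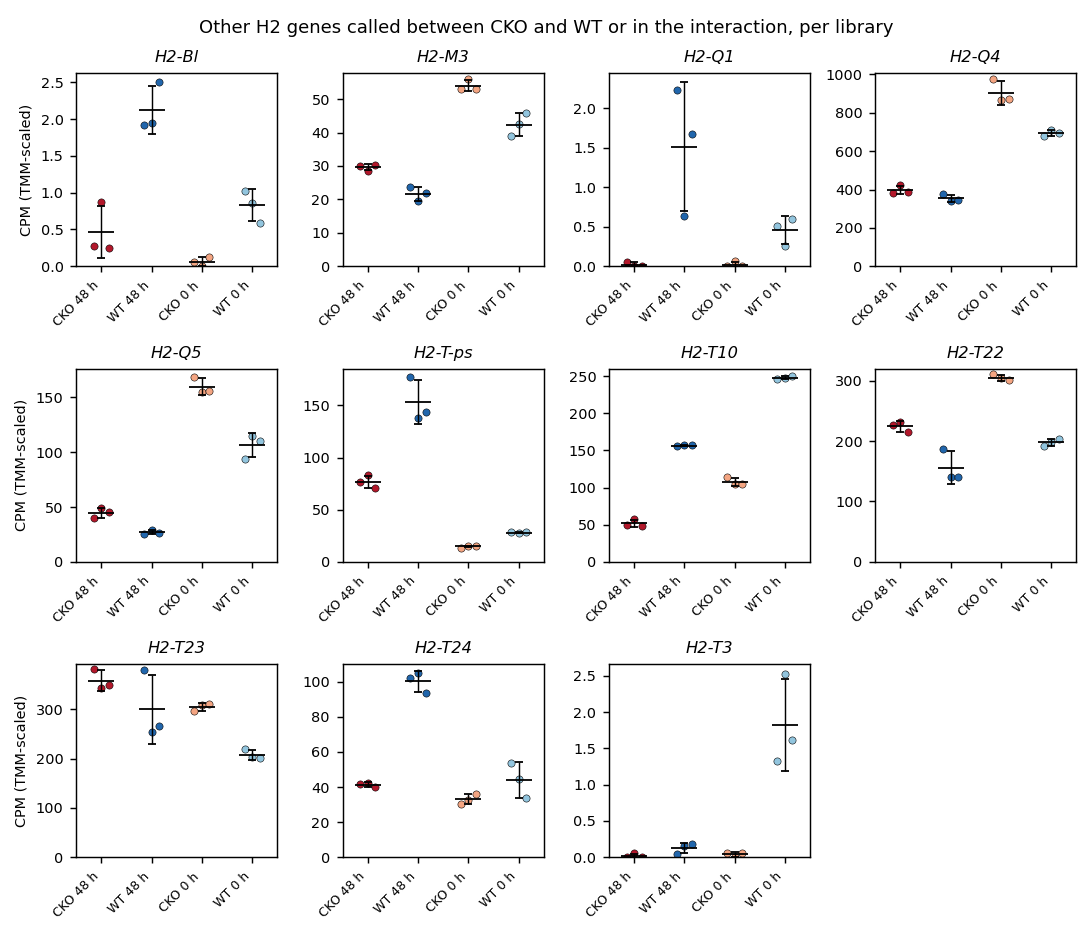
CPM on TMM-scaled totals (y axes, from 0, each panel on its own scale) of the other 11 H2 genes called between CKO and WT cells or in the interaction. Points are libraries, bars the mean and SD (n = 3). CKO libraries lie below WT libraries at both times for H2-T10, H2-T-ps, H2-Bl and H2-Q1, and above them for H2-T22, H2-Q5 and H2-M3.

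A few H2 genes were near 0 counts in CKO cells. H2-Q1 and H2-T3 reached 10 counts in WT libraries alone, so a lower level in CKO cells was built into their being kept, and their values are given as a description without a test, although the counts of called genes above include them. H2-Q1 had 1, 0 and 0 counts in CKO cells, against 43, 12 and 37 counts in WT cells, at 48 h. At 0 h H2-Q1 had 0, 1 and 0 counts in CKO cells, against 9, 5 and 10 counts in WT cells. From summed counts it was 85.2-fold lower in CKO cells at 48 h (95% interval 14.9 to 3400) and 21.8-fold lower at 0 h (3.56 to 899), intervals that cover counting error only.

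H2-T3, which codes for the thymus leukemia antigen, had 1, 0 and 1 counts in CKO cells, against 23, 50 and 27 counts in WT cells, at 0 h. At 48 h H2-T3 had 0, 1 and 0 counts in CKO cells, against 1, 3 and 4 counts in WT cells. It was 45.5-fold lower in CKO cells at 0 h (95% interval 12.3 to 381). At 48 h the ratio was 7.41-fold lower in CKO cells with an interval of 0.994 to 329, so a difference was not detectable at this depth. H2-Bl, annotated as a polymorphic pseudogene, had 5, 16 and 5 counts in CKO cells, against 37, 37 and 55 counts in WT cells, at 48 h. At 0 h H2-Bl had 1, 0 and 2 counts in CKO cells, against 18, 17 and 10 counts in WT cells. H2-Bl reached 10 counts in 1 CKO library and in 6 WT libraries, so it too was kept through WT cells. A lower level in CKO cells was thus partly built in, and its genotype values are given as a description without a test. CKO libraries were lower at both times, by -2.17 ± 0.49 on the log2 scale at 48 h. At 0 h the summed counts were 13.7-fold lower in CKO cells (95% interval 4.38 to 68.7). The counts of called genes above include H2-Bl. Its 48 h call was lost without CKO replicate 1 or 3 or WT replicate 3 at 48 h. H2-Bl rose with stimulation, by 1.35 ± 0.45 in WT cells (edgeR adjusted p = 0.00947) and 7.64-fold from summed counts in CKO cells (95% interval 2.34 to 39.4, edgeR adjusted p = 0.00358).

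The response to stimulation differed between the genotypes for 2 of the 31 genes, both lower in CKO cells, which is 6.45%, beside 1.38% of all tested genes (0.609% higher and 0.772% lower). H2-T10 fell by 1.06 ± 0.07 log2 units in CKO and by 0.67 ± 0.06 in WT cells, a difference of -0.39 ± 0.09 (edgeR adjusted p = 0.0343). H2-T24 rose by 0.33 ± 0.13 in CKO and by 1.18 ± 0.12 in WT cells, a difference of -0.86 ± 0.18 (edgeR adjusted p = 0.0252). The H2-T10 call was lost when any 1 of 9 libraries was left out (CKO replicates 1 and 3 and WT replicates 2 and 3 at 48 h, CKO replicates 1 and 3 and all WT replicates at 0 h), with differences from -0.41 to -0.35 and adjusted p from 0.0554 to 0.119. The H2-T24 call was lost when any 1 of 7 was left out (CKO replicates 1 and 3 and WT replicates 1 and 2 at 48 h, CKO replicates 2 and 3 and WT replicate 2 at 0 h), with differences from -0.87 to -0.79 and adjusted p from 0.0502 to 0.0785. The rise of H2-T24 in CKO cells (edgeR adjusted p = 0.0289) was itself lost with the stricter filter (0.26, adjusted p = 0.0708) and without CKO replicate 1 (0.33, adjusted p = 0.0551) or 2 (0.32, adjusted p = 0.062) at 48 h or CKO replicate 1 (0.27, adjusted p = 0.103) or 2 (0.33, adjusted p = 0.066) at 0 h. No member had a higher response in CKO cells by edgeR (0 called, 0 at an unadjusted p under 0.05 and 0 by DESeq2).

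Most of the called H2 genes lie from H2-D1 to H2-T3 on chromosome 17, while H2-K1 and H2-M3 lie outside that stretch. Neighbouring genes were therefore counted as well, using the gene order of GRCm38. Of 45 tested genes from H2-D1 to H2-T3, 12 were called between CKO and WT cells at 48 h (26.7%) and 22 at 0 h (48.9%). Leaving the members out, 5 of 30 were called at 48 h (16.7%) and 13 of 30 at 0 h (43.3%). Some called genes of this stretch, such as Gm9574 and Gm8810, had almost no counts in 1 genotype and were tested through the other. A part of the shares of this stretch, with or without the members, was thus built in. From H2-K2 up to H2-D1, 4 of 78 were called at 48 h (5.13%) and 3 of 78 at 0 h (3.85%), beside 4.54% at 48 h and 7.48% at 0 h over all tested genes. Beyond H2-T3 as far as H2-M2, 2 of 14 were called at 48 h (14.3%) and 3 of 14 at 0 h (21.4%). Within 2 Mb either side of the H2 region, 3 of 54 were called at 48 h (5.56%) and 4 of 54 at 0 h (7.41%). These stretches were drawn after the values were seen, and no test was made on them. Without CKO replicate 3 at 0 h the 22 calls at 0 h became 14.

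**Figure D4:**
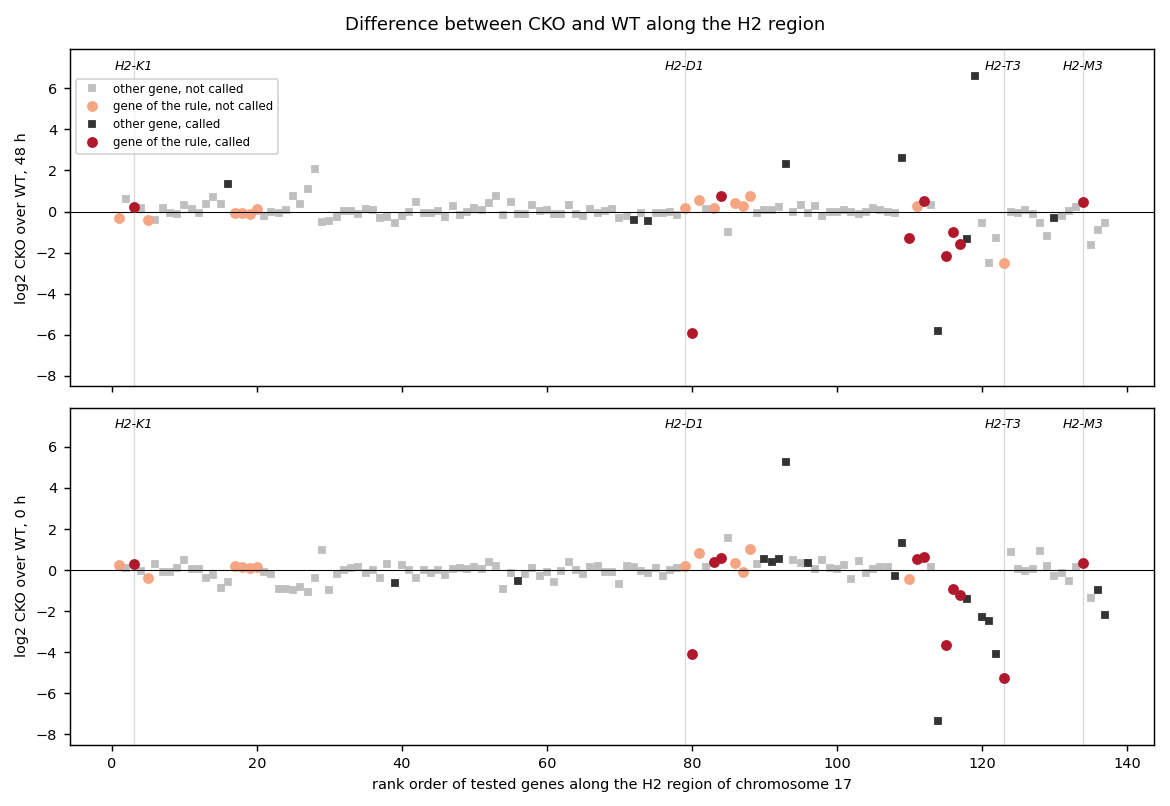
Log2 difference of CKO over WT cells (y axes) for the 137 tested genes of the H2 region, in rank order along chromosome 17 (x axis), at 48 h (top) and 0 h (bottom). Round points are genes of the rule, square points other genes, and dark points were called. Values are those of the fit, also for genes near 0 counts. Most called genes stand from H2-D1 to H2-T3, in both directions.

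Neighbours outside the class I set differed in both directions. Ddr1, a collagen receptor kinase, averaged 16.8 CPM in CKO and 3.34 CPM in WT cells at 48 h (log2 2.33 ± 0.16, edgeR adjusted p = 1.12e-08), and 10.9 CPM in CKO and 0.275 CPM in WT cells at 0 h (5.26 ± 0.32, edgeR adjusted p = 1.76e-11). Gm9574 had 36 counts in CKO and 0 in WT cells at 48 h, and 172 in CKO and 0 in WT cells at 0 h, at least 13-fold and at least 63-fold higher against a floor of 3 counts over the group. Gm8810 had 1 count in CKO and 84 in WT cells at 48 h, and 2 in CKO and 420 in WT cells at 0 h. Its level at 0 h was 191-fold lower in CKO cells (95% interval 52.6 to 1580, which covers counting error only). Gm9574 was tested through its counts in CKO libraries and Gm8810 through those in WT libraries. A difference was thus built in, and the values of both are a description without a test. A930015D03Rik, an antisense gene that overlaps H2-T22, H2-T23 and H2-T24 on the opposite strand, averaged 7.10 CPM in CKO and 1.14 CPM in WT cells at 48 h (2.63 ± 0.29, edgeR adjusted p = 7.78e-06). H2 genes are known to differ between mouse strains, and Senp1 lies on another chromosome. As the labels give no strain or backcross, DNA linked to H2 and the Senp1 genotype cannot be told apart as the source of these differences.

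Other genes of the pathway were read from lists. Of 14 tested genes of peptide supply outside the members, 13 were higher and 1 lower at 48 h in each genotype, with a median log2 change of 1.13 in CKO and 1.20 in WT cells. Beside this, 38.5% of all tested genes were higher in CKO and 38.7% in WT cells. Lap3, a leucine aminopeptidase, rose by 2.65 ± 0.07 in CKO and 2.35 ± 0.07 in WT cells, and Pomp, which helps to assemble the proteasome, by 2.07 ± 0.07 in CKO and 1.94 ± 0.07 in WT cells (edgeR adjusted p at most 4.2e-15). Between genotypes, Ide, the insulin-degrading enzyme, was higher in CKO cells by 0.98 ± 0.06 at 48 h and 1.10 ± 0.06 at 0 h (edgeR adjusted p = 2.29e-09 and 4.81e-10).

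Of 14 tested genes of folding, editing and export, 11 were higher and 1 lower at 48 h in each genotype, beside the same shares of all tested genes, with a median of 0.44 in CKO and 0.40 in WT cells. Tapbpl, a peptide editor related to tapasin, rose by 1.33 ± 0.07 in CKO and 1.53 ± 0.08 in WT cells. Tapbp itself rose less in WT cells (0.28 ± 0.09) and was not called in CKO cells (0.03 ± 0.09). Lman1, a cargo receptor for export, rose by 2.01 ± 0.08 in CKO and 2.19 ± 0.08 in WT cells. Of 23 regulators of class I and interferon gamma signalling, 9 were higher and 10 lower in CKO cells, and 9 higher and 11 lower in WT cells, shares called that are near the 77.7% in CKO and 77.9% in WT cells over all tested genes. Both receptor chains fell, Ifngr1 by -3.18 ± 0.08 in CKO and -3.12 ± 0.08 in WT cells and Ifngr2 by -3.63 ± 0.06 in CKO and -3.84 ± 0.06 in WT cells. Ezh2, a histone methyltransferase of the Polycomb complex, rose by 3.94 ± 0.06 in CKO and 4.26 ± 0.06 in WT cells. At 0 h Ifngr2 was higher in CKO cells by 0.43 ± 0.06 (edgeR adjusted p = 9.71e-05) and Irf2 by 0.40 ± 0.07 (edgeR adjusted p = 0.00116). Nfkb1 was higher in CKO cells at 48 h by 0.58 ± 0.06, and its response differed by 0.64 ± 0.09 (edgeR adjusted p = 7.78e-06 and 0.000668).

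Class I-like and class II genes mostly fell. Of 6 tested class I-like genes, 1 was higher and 5 lower at 48 h in each genotype, where 39.2% of all tested genes were lower in CKO and 39.1% in WT cells. Ulbp1, a ligand of the receptor NKG2D, rose by 2.03 ± 0.07 in CKO and 2.57 ± 0.07 in WT cells, and these responses differed by -0.54 ± 0.10 (edgeR adjusted p = 0.00596). Cd1d1, which presents lipids, fell by -3.85 ± 0.14 in CKO and -3.70 ± 0.13 in WT cells. Of 10 MHC class II genes, 9 were lower in CKO and 10 in WT cells at 48 h, beside the fall of B cell markers given above. At 0 h their median log2 difference of CKO against WT cells was -0.86, with 0 called. H2-DMb1, a class II gene within the H2 region, was higher in CKO cells at 48 h by 1.35 ± 0.36, and its response differed by 1.95 ± 0.44 (edgeR adjusted p = 0.0392 and 0.0371).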

How the data were processed

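RNA was measured in 12 libraries, 4 groups of 3, of CD8+ T cells from mouse spleen. Per the labels' protocols, TRIzol was used for extraction and a TruSeq Stranded mRNA kit for libraries. The authors deposited 1 table of unnormalized counts by gene. The submitters' processing notes name cutadapt, HISAT2 2.2.1, DESeq2 and GRCm39, with no role or order. Which program counted the reads, and with which strand setting, is not given in the sources used here. All 12 columns were used.

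TMM factors were applied and edgeR 4.0.16 was run (robust quasi-likelihood test, 1 mean per group, 8 residual degrees of freedom) in R 4.3.3. The 15935 genes kept by filterByExpr were tested two-sided, with Benjamini-Hochberg adjustment over all of them, and called at an adjusted p under 0.05. Where a group held at most 3 counts of a gene, ratios of summed counts with exact 95% intervals are given beside the fit. Members, lists and alternatives were chosen with earlier results of these data known. Values in every library are given for H2-K1, H2-D1, B2m, Tap1, Tap2, Tapbp, Psmb8, Psmb9, Psmb10 and Nlrc5 and for members called between genotypes or in the interaction; H2-Q6, H2-Q10 and H2-Q2 values were added after they were seen. The tests were tested on simulated data.

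Same-numbered libraries deviated together in WT cells (r = 0.269, 0.342 and 0.119 between 48 h and 0 h) and in CKO cells (0.085, 0.112 and 0.121). Differently numbered pairs ran from -0.306 to 0.089 in WT and from -0.101 to -0.006 in CKO cells. Between CKO and WT cells, same-numbered libraries gave r = 0.266, 0.097 and 0.127 at 48 h, and differently numbered ones from -0.222 to 0.126. At 0 h these were 0.115, 0.084 and -0.079, and from -0.161 to 0.111. Deviations were taken from the mean of each group's 3 libraries, so positive and negative values partly balance by construction. Near-identical copies were described by the share of 100-base and 50-base stretches that occur in other GENCODE M21 transcripts, and exon lengths came from there. Replicates differed by more than sampling noise (chi-square per degree of freedom from 3.95 to 20.8). Of 56691 IDs, 52073 matched a symbol. Alternatives were other size factors, filters, DESeq2 1.42.0, replicate blocks, fits of the groups compared alone, a minimum log2 change of 1, and leaving libraries out. Further tools were matplotlib 3.10.9, SciPy 1.17.1, NumPy 2.4.6 and pandas 2.3.3 under Python 3.11.15.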

Additional observations from a re-analysis of the deposited data

Results flagged for a closer look

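The response of H2-T10 to stimulation differed between CKO and WT cells by -0.39 log2 units (interaction in edgeR, adjusted p = 0.0343), and that of H2-T24 by -0.86 (adjusted p = 0.0252). Both were noted because the difference between the genotypes' responses was itself tested and passed. Neither call held throughout. That of H2-T10 was lost in 9 of 21 alternatives (adjusted p up to 0.119 in edgeR) and that of H2-T24 in 7 (up to 0.0785). Each of these left out a single library. H2-T10 fell further in CKO cells and H2-T24 rose less in CKO cells. Both genes lie in the stretch from H2-D1 to H2-T3.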

How the results depend on the processing

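Of 76 called changes of single members over the 5 contrasts, 63 kept their direction and call under the other scalings, filters, fits and left-out libraries that gave them a value, 13 lost the call in at least 1 of these, and 0 reversed. The minimum log2 change is not part of that tally and took away many more calls. Of 79 that were not called, 19 passed in at least 1 of the same alternatives. With a log2 change of at least 1 required, 4 members were higher and 7 lower at 48 h in CKO cells, 9 higher and 4 lower in WT cells, 0 were higher in CKO than in WT cells at either time, and 0 differed in response. Without WT replicate 1 at both times, 9 members were higher in CKO cells at 48 h and 12 at 0 h. In a fit of the 2 groups alone, 3 were lower in CKO cells at 0 h. Leaving out 1 library at a time gave 3 to 9 members higher in CKO cells at 48 h, 5 to 13 at 0 h, 0 to 2 with a lower response, and 14 to 24 called genes from H2-D1 to H2-T3 at 0 h. The cause was not tested.

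With a replicate block, 12 members were higher and 14 lower in CKO cells at 48 h, 15 higher and 15 lower in WT cells, 4 higher and 5 lower in CKO than in WT cells at 48 h, and 7 higher and 5 lower at 0 h. With a block within each genotype, chosen after seeing the data, the counts at 48 h against 0 h were the same as with the single block. The interaction had 2 calls with either block. Of the WT changes at 48 h, the block within each genotype altered the call of H2-Q10 and of no other member.

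Other scalings moved the median of all genes by at most 0.0346 log2 units. Limits are the 3 libraries per group, the lack of an unstimulated group at 48 h, reads shared between copies, an unknown strand setting and unlabelled strains.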
